A study of Mus musculus with 21 samples.

Results

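Pan-reactive astrocyte genes are those whose transcripts rise in reactive astrocytes whatever the injury, and 8 of them were followed here across APOE genotype and tau expression. The 8 genes (Lcn2, Steap4, S1pr3, Timp1, Cd44, Osmr, Cp and Aspg) were chosen by symbol, with earlier results of these data known. They were matched one to one to the Ensembl gene identifiers of the deposited tables, and all 8 were found. They are thus 8 of the 55401 genes listed.

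RNA of the forebrain was sequenced from 21 mice. The parental E2H, E3H and E4H mice (n = 3 each) are homozygous for human APOE2, APOE3 or APOE4 in place of mouse Apoe and were 9 to 10 months old. Mice of PS/E4H, PS/E3H and PS/E2H (n = 4 each) have the same APOE genotypes together with the PS19 transgene, human tau with the P301S mutation driven by the mouse prion promoter, and were killed once their hindlimbs were paralyzed. Per the study's methods, the PS19 line was kept on a B6/C3H background and the APOE lines on C57BL6 before they were crossed. Tau, paralysis, age at death and strain background therefore cannot be told apart when a PS19 group is set against its parental line. No mouse in the series kept mouse Apoe. Per the study's methods the mice were male except 1 female in E4H, 1 in PS/E2H and 2 in PS/E4H, but which mice these are was not known here and sex was not a term in any fit.

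Astrocytes respond to injury by enlarging, by making more intermediate filament protein and by switching on a set of secreted and surface proteins. Genes induced after both systemic inflammation and ischemia are called pan-reactive, while the A1 and A2 sets were named after genes induced more by one or the other. None of these genes belongs to astrocytes alone: Lcn2 is also a granule protein of neutrophils, Cd44 is carried by many leukocytes, and Timp1, Cp and S1pr3 are made by vascular and meningeal cells as well.

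Total counts were 59265459 to 75932183 per mouse (median 63751715), and each of the 27 within-group pairs differed beyond counting error. The defining markers of astrocytes were present in every group, with the summed level of 6 markers (Aldh1l1, Aqp4, Slc1a2, Slc1a3, Gja1 and Sox9) at 2412 to 2963 CPM in parental mice and 2855 to 3858 CPM in PS19 mice, where CPM is the count scaled to a common library size after TMM normalization. A few mice stood apart for the genes described here. The E2H mouse with replicate number 1 had far more Lcn2 than the other parental mice, PS/E3H mouse 1 lay close to the parental level in most of the 8 genes, and PS/E2H mouse 3, PS/E3H mouse 4 and PS/E4H mouse 1 were the highest of their groups. The values they moved most are also given without them.

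Over the 3 lines together, all 8 genes were higher in PS19 mice than in parental mice, against 11.4% of all 22863 genes tested that were called higher by the same test (edgeR's quasi-likelihood test with the APOE line as a term, Benjamini-Hochberg adjusted p under 0.05). Their median log2 fold change was 1.63, where the median of all genes tested was -0.01. Because the genes were chosen with earlier results of these data known, this contrast with all genes is a description and not a test. Lcn2 had the largest difference at 39.2-fold, followed by Steap4 at 11.3-fold, Timp1 at 5.11-fold and Osmr at 3.52-fold, while Aspg, Cd44, Cp and S1pr3 differed by 1.83-fold to 2.72-fold. Because whole forebrain was sequenced, more cells of a type and more RNA per cell cannot be told apart in any of these values. No gene lost its call when any 1 of the 21 mice was left out, and all 8 also passed when the highest PS19 mouse of each line was left out, a choice made after seeing the values, with log2 fold changes from 0.52 (S1pr3) to 4.45 (Lcn2).

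Line by line, the calls were fewer. In the APOE2 line 0 of 8 genes passed (background 0.669% of 20617 genes). At an unadjusted p under 0.05 there were 6 of 8, against 2203 of all 20617 genes. DESeq2 called 4 of 8 and gave no adjusted p for Steap4, and its share over all genes is not given here. In the APOE3 line 3 of 8 genes passed, namely Lcn2, Timp1 and Osmr (background 3.35% of 21251 genes). In the APOE4 line 7 of 8 genes passed, and the exception was Steap4 (background 8.62% of 20844 genes). A further limit of 2-fold removed no member in any line (backgrounds 0.451%, 1.2% and 2.4%). The median log2 fold change of the 8 genes was 1.60 in the APOE2 line, 1.40 in the APOE3 line and 1.97 in the APOE4 line, so the medians were closer to each other than the counts of calls. Counted by whether every PS19 mouse lay above every parental mouse of its line, 6 genes did so in the APOE2 line (all but Lcn2 and Cd44; background 6.67%), 5 in the APOE3 line (Lcn2, Timp1, Cd44, Osmr and Cp; background 10.5%) and 8 in the APOE4 line (background 15.1%).

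Single mice moved these counts. The share of all tested genes called in each of these refits is not given here, so the counts describe the members only. Without PS/E3H mouse 1 all 8 genes were called in the APOE3 line, whereas leaving out any 1 of the E3H mice left 0 and leaving out PS/E3H mouse 3 left 2. In the APOE4 line, 4, 3 or 4 genes were called without E4H mouse 1, 2 or 3, and leaving out PS/E4H mouse 1 kept 7, of which 5 were still at least 2-fold. In the APOE2 line, 2 genes (Cp and Aspg) were called when PS/E2H mouse 2 was left out.

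**Figure D1:**
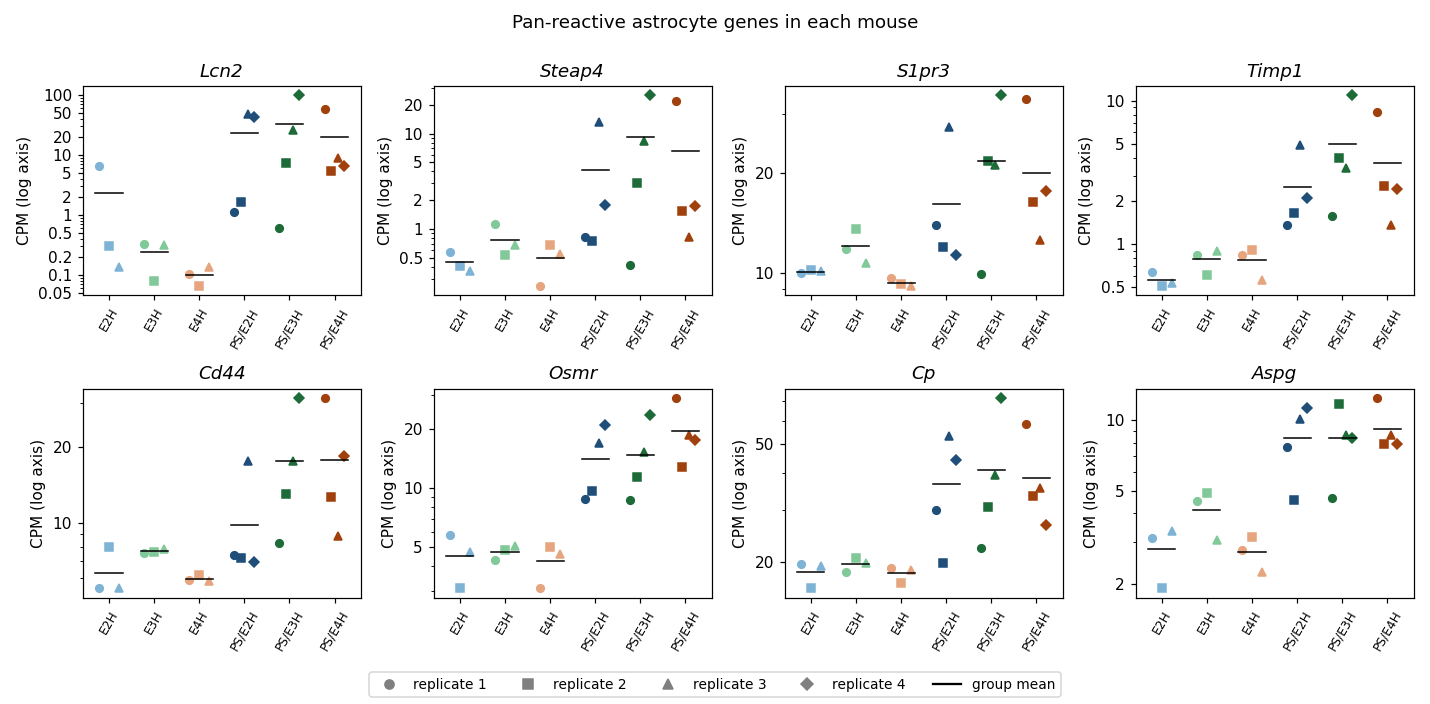
Level of each of the 8 genes in each of the 21 mice, in CPM on a log axis, by group; each point is 1 mouse, its shape gives the replicate number and the black line is the group mean. In PS/E4H, replicate 1 is the highest mouse in all 8 panels, and in PS/E3H, replicate 4 is the highest in 7.

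Osmr encodes the receptor subunit through which oncostatin M signals, together with gp130. In the APOE2 line it stood at 5.78, 3.09 and 4.76 CPM in the E2H mice and at 8.85, 9.64, 16.9 and 20.99 CPM in the PS/E2H mice (replicates in order, here and for the other genes). In the APOE3 line the values were 4.31, 4.85 and 5.11 CPM in E3H and 8.69, 11.5, 15.3 and 23.6 CPM in PS/E3H. In the APOE4 line they were 3.11, 5.03 and 4.64 CPM in E4H and 28.8, 12.9, 18.7 and 17.6 CPM in PS/E4H. Every PS19 mouse lay above every parental mouse, across lines as well as within them, although the PS19 mice of a line still spanned at least 2.24-fold from the lowest to the highest. The log2 fold change was 1.62 (SE 0.336, edgeR adjusted p = 0.0670) in the APOE2 line, 1.62 (SE 0.289, edgeR adjusted p = 0.0146) in the APOE3 line and 2.19 (SE 0.271, edgeR adjusted p = 0.000979) in the APOE4 line. Over the 3 lines it was 1.82 (SE 0.203, edgeR adjusted p = 1.04e-06), the smallest p of the 8 genes.

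S1pr3 encodes one of the G protein-coupled receptors for sphingosine 1-phosphate. Its parental values were tight, at 10, 10.2 and 10.1 CPM in E2H, 11.8, 13.6 and 10.7 CPM in E3H and 9.68, 9.27 and 9.18 CPM in E4H. The PS/E2H mice had 13.9, 11.96, 27.4 and 11.3 CPM, so 3 of the 4 were only just above their parental line. The PS/E3H mice had 9.92, 21.7, 21.03 and 34.02 CPM, and the first of them lay below all 3 E3H mice. The PS/E4H mice had 33.3, 16.4, 12.6 and 17.6 CPM, all above E4H. S1pr3 passed in the APOE4 line (log2 fold change 1.08, SE 0.278, edgeR adjusted p = 0.0268) but not in the APOE3 line (0.83, SE 0.309, edgeR adjusted p = 0.149) or the APOE2 line (0.67, SE 0.283, edgeR adjusted p = 0.431), and over the 3 lines the log2 fold change was 0.87 (SE 0.194, edgeR adjusted p = 0.00246). Without the highest mouse of the PS19 group the APOE2, APOE3 and APOE4 values were 0.29, 0.53 and 0.73. The APOE4 call of S1pr3 was lost under 4 of 7 alternative fits and in 3 of 7 refits without 1 mouse. It shares 45 exonic bases, 1.01% of its exon length, with the antisense gene Gm32834; the libraries were stranded, but the strand setting of the authors' counting is not given in the sources used here.

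Cd44 encodes the cell surface receptor for hyaluronan and osteopontin. In E2H mice it was at 5.46, 8.02 and 5.46 CPM, and in PS/E2H mice at 7.46, 7.21, 17.7 and 6.995 CPM. Only PS/E2H mouse 3 exceeded the highest E2H mouse. E3H mice had 7.59, 7.60 and 7.83 CPM against 8.30, 13.03, 17.6 and 31.4 CPM in PS/E3H, and E4H mice had 5.87, 6.16 and 5.85 CPM against 31.5, 12.7, 8.89 and 18.5 CPM in PS/E4H. In both of these lines the groups did not overlap. The log2 fold change was 0.63 (SE 0.333, edgeR adjusted p = 0.557), 1.18 (SE 0.352, edgeR adjusted p = 0.0798) and 1.58 (SE 0.357, edgeR adjusted p = 0.0159) in the APOE2, APOE3 and APOE4 lines, and 1.14 (SE 0.245, edgeR adjusted p = 0.00178) over all of them. Without PS/E2H mouse 3, PS/E3H mouse 4 or PS/E4H mouse 1 the values of the 3 lines were 0.19, 0.75 and 1.16.

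Lcn2 encodes lipocalin 2, a secreted protein that binds bacterial siderophores and so withholds iron. The E2H mice had 6.60, 0.300 and 0.138 CPM, that is 498, 17 and 10 counts. The PS/E2H mice had 1.14, 1.64, 47.5 and 42.97 CPM, so 2 of them lay below E2H mouse 1 and the groups overlapped. The E3H mice had 0.325, 0.0800 and 0.311 CPM and the PS/E3H mice 0.618, 7.33, 26.5 and 98.2 CPM, a range of 159-fold within 1 group. The E4H mice had 0.104, 0.0663 and 0.134 CPM and the PS/E4H mice 57.5, 5.35, 9.05 and 6.64 CPM. In the APOE3 and APOE4 lines no parental mouse reached a PS19 mouse, but the counts behind the parental values were only 5 to 24 in E3H and 5 to 10 in E4H, so the size of the fold is set by few reads. The log2 fold change was 7.05 (SE 1.56, edgeR adjusted p = 0.0304) in the APOE3 line and 7.57 (SE 1.16, edgeR adjusted p = 0.00285) in the APOE4 line. In the APOE2 line it was 3.28 (SE 1.504, edgeR adjusted p = 0.481), and without E2H mouse 1 it was 6.76 (edgeR adjusted p = 0.283). Without the highest PS19 mouse it was 2.67 in the APOE2 line, 5.53 in the APOE3 line and 6.09 in the APOE4 line, and the latter 2 still passed. Over the 3 lines it was 5.29 (SE 1.05, edgeR adjusted p = 0.000835), and it was 7.13 without E2H mouse 1.

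Timp1 encodes a secreted inhibitor of matrix metalloproteinases. E2H mice had 0.637, 0.512 and 0.537 CPM and PS/E2H mice 1.37, 1.64, 4.94 and 2.09 CPM. In the APOE3 line E3H mice had 0.841, 0.608 and 0.895 CPM and PS/E3H mice 1.56, 4.01, 3.39 and 10.9 CPM. For APOE4, E4H mice had 0.833, 0.915 and 0.565 CPM and PS/E4H mice 8.29, 2.54, 1.36 and 2.41 CPM. No parental mouse of any line overlapped a PS19 mouse. The log2 fold change was 2.14 (SE 0.460, edgeR adjusted p = 0.0783), 2.65 (SE 0.567, edgeR adjusted p = 0.0275) and 2.24 (SE 0.567, edgeR adjusted p = 0.0257) in the APOE2, APOE3 and APOE4 lines, and 2.35 (SE 0.349, edgeR adjusted p = 3.74e-05) over all of them. Without the highest PS19 mouse of the line it was 1.59, 1.92 and 1.45, and it still passed in the APOE3 and APOE4 lines.

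Cp encodes ceruloplasmin, the copper-carrying ferroxidase that helps iron leave cells. Its parental levels were even, at 19.7, 16.4 and 19.5 CPM in E2H, 18.5, 20.6 and 19.98 CPM in E3H and 19.2, 17.05 and 18.9 CPM in E4H. The PS/E2H mice had 29.9, 19.96, 53.3 and 44.3 CPM, the PS/E3H mice 22.4, 30.6, 39.5 and 71.5 CPM, and the PS/E4H mice 58.4, 33.4, 35.5 and 26.7 CPM. Each PS19 mouse was above its own parental line, PS/E2H mouse 2 by the narrowest margin. Between lines the log2 fold change varied little, at 0.99 (SE 0.282, edgeR adjusted p = 0.196), 1.04 (SE 0.313, edgeR adjusted p = 0.0813) and 1.06 (SE 0.223, edgeR adjusted p = 0.0116) for APOE2, APOE3 and APOE4, and it was 1.04 (SE 0.182, edgeR adjusted p = 0.000236) over all lines. It shares 108 exonic bases, 1.13% of its exon length, with Hps3 on the other strand.

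Aspg encodes an asparaginase. E2H mice had 3.14, 1.91 and 3.36 CPM, E3H mice 4.49, 4.88 and 3.06 CPM, and E4H mice 2.78, 3.17 and 2.23 CPM. PS/E2H mice had 7.66, 4.56, 10.1 and 11.3 CPM, PS/E3H mice 4.66, 11.8, 8.62 and 8.42 CPM, and PS/E4H mice 12.4, 7.91, 8.61 and 7.87 CPM. The groups overlapped in the APOE3 line alone, where PS/E3H mouse 1 fell below the highest E3H mouse. The log2 fold change was 1.57 (SE 0.322, edgeR adjusted p = 0.0644) in the APOE2 line, 1.003 (SE 0.281, edgeR adjusted p = 0.0663) in the APOE3 line and 1.75 (SE 0.207, edgeR adjusted p = 0.000767) in the APOE4 line. Over the 3 lines it was 1.44 (SE 0.186, edgeR adjusted p = 6.76e-06).

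Steap4 encodes a membrane metalloreductase that reduces iron and copper, and its PS19 mice were uneven. The E2H mice had 0.570, 0.406 and 0.358 CPM and the PS/E2H mice 0.820, 0.752, 13.2 and 1.79 CPM. E3H and PS/E3H mice had 1.11, 0.528 and 0.674 CPM and 0.421, 3.04, 8.35 and 25.1 CPM. E4H and PS/E4H mice had 0.253, 0.677 and 0.551 CPM and 21.9, 1.55, 0.8286 and 1.73 CPM. In each line 1 PS19 mouse carried most of the group mean, and PS/E3H mouse 1 had less Steap4 than any E3H mouse. Its log2 fold change did not pass in any line, at 3.20 (SE 1.02, edgeR adjusted p = 0.255), 3.56 (SE 1.04, edgeR adjusted p = 0.0757) and 3.70 (SE 1.15, edgeR adjusted p = 0.0547) in the APOE2, APOE3 and APOE4 lines. Without PS/E2H mouse 3, PS/E3H mouse 4 or PS/E4H mouse 1 these became 1.32, 2.33 and 1.46. It passed over the 3 lines (3.502, SE 0.719, edgeR adjusted p = 0.00115), and when the highest PS19 mouse of each line was left out it still passed at 1.73 (edgeR adjusted p = 0.00492).

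**Figure D2:**
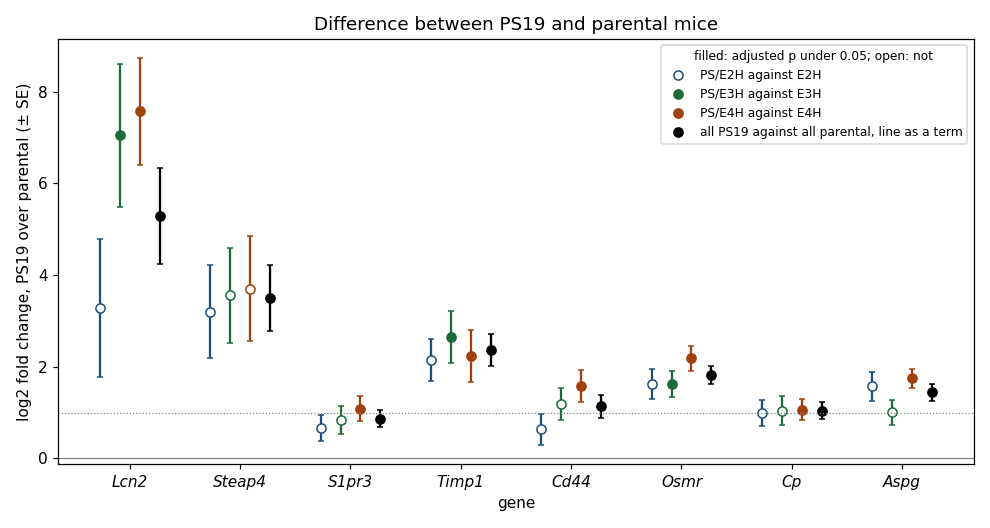
Log2 fold change of each gene between PS19 and parental mice in the 3 APOE lines and over all lines, with bars of 1 SE; filled points have an edgeR adjusted p under 0.05, and the dotted line marks 2-fold. Every point lies above 0, from 0.63 for Cd44 in the APOE2 line to 7.57 for Lcn2 in the APOE4 line.

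Steap4 and Timp1 varied together from mouse to mouse, and their promoters are shown because they contrast in the transcription factor motifs they hold. The 250 bases before each RefSeq start site (GRCm38.p6) were searched on both strands for the STAT motif TTCNNNGAA, the C/EBP motif TTGCNNAA, the AP-1 motif TGANTCA and the NF-kB motif, and matches are in capitals. Steap4 (chr5:7960222-7960471, plus strand) holds a STAT match starting at -116, a C/EBP match at -87 and NF-kB matches at -250 and -226. Timp1 (chrX:20869916-20870165, plus strand) holds none of the 4 motifs in this window.
Steap4: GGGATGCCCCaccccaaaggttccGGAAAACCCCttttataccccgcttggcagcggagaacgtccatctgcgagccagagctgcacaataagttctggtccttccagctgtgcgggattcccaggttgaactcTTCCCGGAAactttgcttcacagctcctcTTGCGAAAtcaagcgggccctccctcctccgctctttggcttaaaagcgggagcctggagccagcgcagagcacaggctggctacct
Timp1: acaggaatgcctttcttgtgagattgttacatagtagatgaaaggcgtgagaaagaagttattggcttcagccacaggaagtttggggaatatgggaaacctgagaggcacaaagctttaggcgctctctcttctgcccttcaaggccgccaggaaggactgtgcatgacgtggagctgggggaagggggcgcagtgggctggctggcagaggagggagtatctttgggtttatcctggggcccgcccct

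Among the other members, Lcn2 holds a C/EBP match at -216, Cp an AP-1 match at -177 in one of its windows and a C/EBP match at -70 in the other, and Cd44, Osmr, Aspg and S1pr3 hold none. Over all 32851 promoter windows of this length, 7.02% hold the STAT motif, 9.56% the C/EBP motif, 6.75% the AP-1 motif and 7.25% the NF-kB motif. A match is a description of the letters and not a bound site.

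The genes lie apart in the genome, on 7 chromosomes, with only Lcn2 and Cd44 on the same one (GRCm38, GENCODE M21). Lcn2 spans chr2:32384633-32388252 and Cd44 chr2:102811141-102901665, both on the minus strand. Steap4 is at chr5:7960457-7982213, S1pr3 at chr13:51408639-51422797, Timp1 at chrX:20870166-20874735, Cp at chr3:19957054-20009145 and Aspg at chr12:112106679-112127559, all on the plus strand, while Osmr is at chr15:6813577-6874969 on the minus strand. The counts are of whole genes over all their exons.

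Per transcript length, Lcn2 led the 8 genes in some PS19 mice, while S1pr3 or Cp led in the others. On the FPKM scale (fragments per kilobase of transcript, scaled to library size), S1pr3 at 1.91 to 2.97 and Cp at 1.43 to 2.10 were the highest in most parental mice, and Lcn2 was at 0.0224 to 0.108 outside E2H mouse 1, where it reached 2.30. In PS19 mice Lcn2 ran from 0.205 to 34.5 FPKM. It was the most abundant of the 8 genes in its highest mouse of each line (16.8, 34.5 and 20.3 FPKM). S1pr3 or Cp was still the highest in PS/E2H mice 1 and 2, PS/E3H mice 1 and 2 and PS/E4H mice 2, 3 and 4. In PS/E4H mouse 4, for example, S1pr3 was at 3.76, Cp at 2.66 and Lcn2 at 2.39 FPKM. The mean level of the set, taken as the geometric mean of FPKM + 0.1 over the 8 genes, was 0.580 to 0.978 in the 9 parental mice. It was 1.16, 1.08, 4.24 and 2.38 in the PS/E2H mice, 0.933, 2.39, 3.33 and 6.39 in the PS/E3H mice and 5.97, 1.83, 1.67 and 2.11 in the PS/E4H mice. PS/E3H mouse 1 alone among the 12 PS19 mice fell inside the parental range, below E2H mouse 1 at 0.978 but above the other 8 parental mice, of which the highest was at 0.840.

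Ordered by group mean CPM, the 3 PS19 groups were above the 3 parental groups for all 8 genes. PS/E3H was the highest group for Lcn2, Steap4, S1pr3, Timp1 and Cp, and PS/E4H for Cd44, Osmr and Aspg. Of the 5 pairs of neighbours in each order, all 5 overlapped in their range over mice for Lcn2, Steap4, Cd44, Cp and Aspg. For Timp1 and Osmr the neighbours PS/E2H and E3H did not overlap, and for S1pr3 the neighbours E3H and E2H, and E2H and E4H, did not, with the PS19 groups overlapping in each case. The share of all tested genes with such an order or such gaps is not given here, so both are a description only. The mean for Lcn2 was 33.2 ± 44.7 CPM (SD, n = 4) in PS/E3H, 23.3 ± 25.4 in PS/E2H and 19.6 ± 25.3 in PS/E4H, so the SD was larger than the mean in all 3. For Aspg the same groups had 8.37 ± 2.91, 8.40 ± 2.97 and 9.20 ± 2.18 CPM.

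None of the 8 genes was called between APOE genotypes at an adjusted p under 0.05. Calls were rare over all tested genes as well, so their absence says little about the members. Among parental mice 0 of 8 genes passed between E2H and E3H (background 0.178%), 0 of 7 between E4H and E3H (background 0.162%; Lcn2 did not reach the count filter) and 0 of 8 between E4H and E2H (background 0.216%). Between PS19 groups 0 of 8 passed for PS/E2H against PS/E3H (background 0.113%), PS/E4H against PS/E3H (background 0.0197%) and PS/E4H against PS/E2H (background 0.119%). The paper reports that PS/E3H mice reached paralysis later than PS/E2H and PS/E4H mice, and the PS19 groups differ in their number of females. APOE genotype, age at death and sex therefore cannot be told apart between PS19 groups, nor in the interactions given below. At an unadjusted p under 0.05 there were 1 (Lcn2), 3 (S1pr3, Cd44 and Aspg) and 1 (Lcn2) in the parental comparisons and 0 in the PS19 comparisons. Over all genes tested there were, in the same order, 2933 of 20797, 1397 of 20958 and 2570 of 20804 in the parental comparisons. In the PS19 comparisons there were 2383 of 20324, 1324 of 20332 and 2491 of 20202. DESeq2 and limma also called 0 members in all 6, although DESeq2 gave no adjusted p for Lcn2 in the comparisons of E2H with E3H and E4H. The largest member difference between PS19 groups was -1.16 for Steap4 (PS/E2H minus PS/E3H, log2, SE 1.08, edgeR adjusted p = 0.654). For the other pairs it was -0.76 for Lcn2 (PS/E4H minus PS/E3H, SE 1.10, edgeR adjusted p = 0.924) and 0.86 for Cd44 (PS/E4H minus PS/E2H, SE 0.393, edgeR adjusted p = 0.406).

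Among parental lines the largest member differences were those of Lcn2. Lcn2 was higher in E2H than in E3H by 3.27 (log2, SE 1.26, edgeR adjusted p = 0.310) and lower in E4H than in E2H (-4.51, SE 1.39, edgeR adjusted p = 0.363). Without E2H mouse 1 the first of these became -0.15, while for the second Lcn2 had no value without that mouse and lay between -5.07 and -4.28 with any other mouse left out. Between E4H and E3H the largest was Steap4 at -0.64 (SE 0.455, edgeR adjusted p = 0.863). In that pair every E4H mouse lay below every E3H mouse for S1pr3 and Cd44, and the other members tested overlapped. S1pr3 was at 9.18 to 9.68 CPM in E4H and 10.7 to 13.6 CPM in E3H (edgeR adjusted p = 0.542). Cd44 was at 5.85 to 6.16 and 7.59 to 7.83 CPM (edgeR adjusted p = 0.547). The share of all tested genes so separated is not given here.

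Whether the PS19 difference itself depended on the APOE line was tested as a difference of differences. It passed for 0 of 8 genes in each of the 3 pairs of lines, by edgeR, DESeq2 and limma (edgeR backgrounds 0%, 0% and 0%). At an unadjusted p under 0.05 by edgeR there were 0 of 8 in each pair. Over all genes tested there were 1265 of 22133 (APOE2 against APOE3), 847 of 22212 (APOE4 against APOE3) and 2223 of 22031 (APOE4 against APOE2). The largest estimates were -3.77 for Lcn2 (APOE2 minus APOE3, log2, SE 2.34, edgeR adjusted p = 0.859), 0.74 for Aspg (APOE4 minus APOE3, SE 0.373, edgeR adjusted p = 0.9999) and 4.28 for Lcn2 (APOE4 minus APOE2, SE 2.28, edgeR adjusted p = 0.551). The different numbers of calls in the 3 lines are therefore not shown to be a difference between lines.

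Within a group, the levels of the 8 genes varied together from mouse to mouse. PS/E4H mouse 1 was the highest of its group for 8 of 8 genes, where 29.1% of all tested genes were highest in that mouse. PS/E3H mouse 4 was the highest for 7 of 8 (24.2% of tested genes) and PS/E2H mouse 3 for 6 of 8 (30.2% of tested genes), the others being Aspg in PS/E3H and Osmr and Aspg in PS/E2H. After subtracting each group's mean of log2 CPM, Pearson's r over the 21 mice was between 0.33 (Cd44 and Aspg) and 0.93 (S1pr3 and Cd44) for the pairs of genes. Steap4, S1pr3, Timp1 and Cd44 were the most alike, at 0.90 to 0.93 for all pairs among them, and Steap4 with Timp1 was at 0.92. Osmr followed Lcn2 (0.83) and Cp (0.81) more closely than it followed Cd44 (0.55), and Aspg was at 0.64 or below with every other member. These coefficients describe mice that share libraries and scaling factors, and are given as a description.

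**Figure D3:**
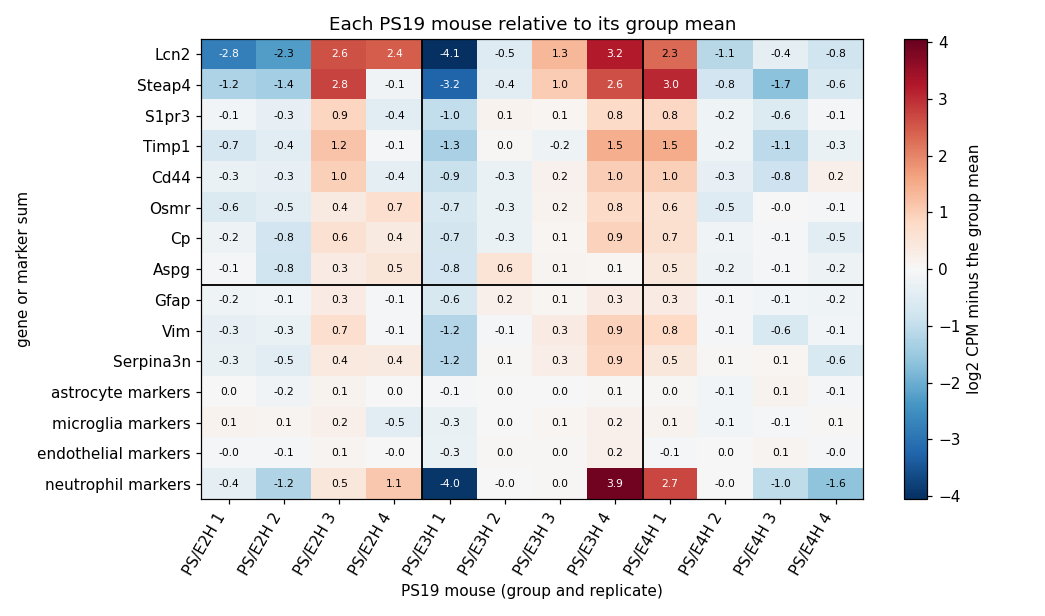
Each of the 12 PS19 mice relative to its own group, as log2 CPM minus the group mean, for the 8 genes (above the black line) and for Gfap, Vim, Serpina3n and 4 summed marker lists (below it); red is above the group mean and blue below. Lcn2 runs from -4.06 to 3.23 and the neutrophil markers from -3.97 to 3.93, the lowest marker sum resting on 11 counts. The astrocyte sum, of which Slc1a2 makes up 65.05% to 72.8%, stays between -0.15 and 0.15.

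Lcn2 and Steap4 varied more than most tested genes, and the other members stood out less. In PS/E3H the SD of log2 CPM was 3.11 for Lcn2 and 2.50 for Steap4, where the median over all tested genes was 0.229 and 0.459% and 3.005% of genes varied at least as much. In PS/E2H the SDs were 2.92 and 1.92 (0.809% and 8.85% of genes at least as large), and in PS/E4H 1.57 and 2.08 (10.5% and 7.70%). Aspg was the least variable member in PS19 mice, at 0.583, 0.558 and 0.312 in PS/E2H, PS/E3H and PS/E4H (25.5%, 25.2% and 40.1% of genes at least as large). For the members other than Lcn2 and Steap4, this share ran from 11.5% (Timp1 in PS/E3H) to 40.1% (Aspg in PS/E4H). In parental mice the SD of S1pr3 was 0.0175 in E2H and 0.0405 in E4H.

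For each gene, the tested gene with the most similar mouse-to-mouse pattern was found among 13381 candidates of mean FPKM of at least 1, by r of the same deviations over 21 mice. S1pr3 and Steap4 were most like C3, the central complement component (0.97 and 0.94), Cd44 was most like Chil1 (0.96), Timp1 was most like Vim, the intermediate filament vimentin (0.91), and Cp was most like Serpina3n (0.89). Lcn2 and Osmr were both most like S100a9, a calcium-binding protein abundant in neutrophils (0.84 and 0.86). Aspg was most like Abhd14b (0.89). Vim was also among the 3 most similar genes of Steap4, S1pr3 and Cd44.

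The neutrophil markers moved with the members. The summed level of 6 of them (S100a8, S100a9, Ngp, Camp, Mpo and Elane) was 0.583 to 1.63 CPM in E3H and 0.336 to 0.398 CPM in E4H, and in E2H it was 0.618, 1.005 and, in mouse 1, 7.63 CPM. In PS/E3H it was 0.154, 2.40, 2.49 and 36.9 CPM in mice 1 to 4, in PS/E4H 20.1, 3.01, 1.49 and 0.980 CPM, and in PS/E2H 1.91, 1.06, 3.36 and 5.26 CPM. PS/E3H mouse 4, PS/E4H mouse 1 and E2H mouse 1, each the highest of its group in Lcn2, were also the highest of their groups in these markers, and PS/E3H mouse 1 was the lowest in both, while in PS/E2H mouse 4 was highest in the markers and mouse 3 in Lcn2. Lcn2 alone, at 98.2, 57.5 and 6.60 CPM in the first 3 mice named, was at 98.2 against 36.9 CPM, 57.5 against 20.1 CPM and 6.60 against 7.63 CPM for the 6 markers summed. All 6 markers had more than 3 counts in some mouse, and in PS/E3H mouse 4 the counts were 796 for S100a9, 730 for Ngp and 627 for S100a8. In PS/E3H mouse 1 the sum was 11 counts of S100a9, with 0 for the other markers, and Elane was at 0 in most mice. The low sums rest on few reads, so the log2 deviations of this list and r with it are imprecise. None of the 6 was called higher in PS/E2H or PS/E3H mice (3 and 4 of 6 tested), and S100a8 was called in PS/E4H. In the test over the 3 lines Ngp was called higher (log2 fold change 2.87, SE 0.950, edgeR adjusted p = 0.0338) and the other 4 markers tested were not. The part of neutrophil RNA in the level of Lcn2 or the other members was not tested.

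Over all 21 mice, r between the deviations of the set's mean level and of a marker sum was 0.86 for the neutrophil list, 0.60 for endothelial, 0.50 for fibroblast, 0.43 for astrocyte, 0.36 for microglia, -0.06 for oligodendrocyte, -0.11 for choroid plexus and -0.34 for neuron markers. The markers of most of these cell types had group differences of their own. Microglial markers summed to 325 to 415 CPM in parental and 394 to 754 CPM in PS19 mice, with 1, 4 and 5 of 6 called higher in the APOE2, APOE3 and APOE4 lines. Of the astrocyte markers 0, 4 and 4 of 6 were called higher, the highest group median being 3460 CPM in PS/E3H against 2664 to 2746 CPM in the parental groups. This sum is mostly Slc1a2 (65.05% to 72.8% of it), and single markers varied more, such as Aqp4 at 179 ± 75.6 CPM (SD, n = 4) in PS/E2H, named here after its values were seen. Endothelial markers were at 151 to 193 CPM in parental and 156 to 219 CPM in PS19 mice, with 0, 0 and 2 of 6 called. Fibroblast markers were at 86.0 to 131 CPM against 119 to 201 CPM, with 0, 1 and 2 of 6 called. Choroid plexus markers had 0 of 6 called in any line, neuron markers had 3 of 6 lower and 2 higher in PS/E4H, and oligodendrocyte markers had 0, 6 and 5 of 6 higher. In the test over the 3 lines, in which all 8 members passed, 6 of 6 astrocyte, 5 of 6 microglial, 3 of 6 endothelial, 3 of 6 fibroblast, 2 of 6 choroid plexus, 4 of 6 oligodendrocyte and 2 of 6 neuron markers were called higher, and 3 neuron markers lower. The part of these lists in the members' differences was not tested.

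**Figure D4:**
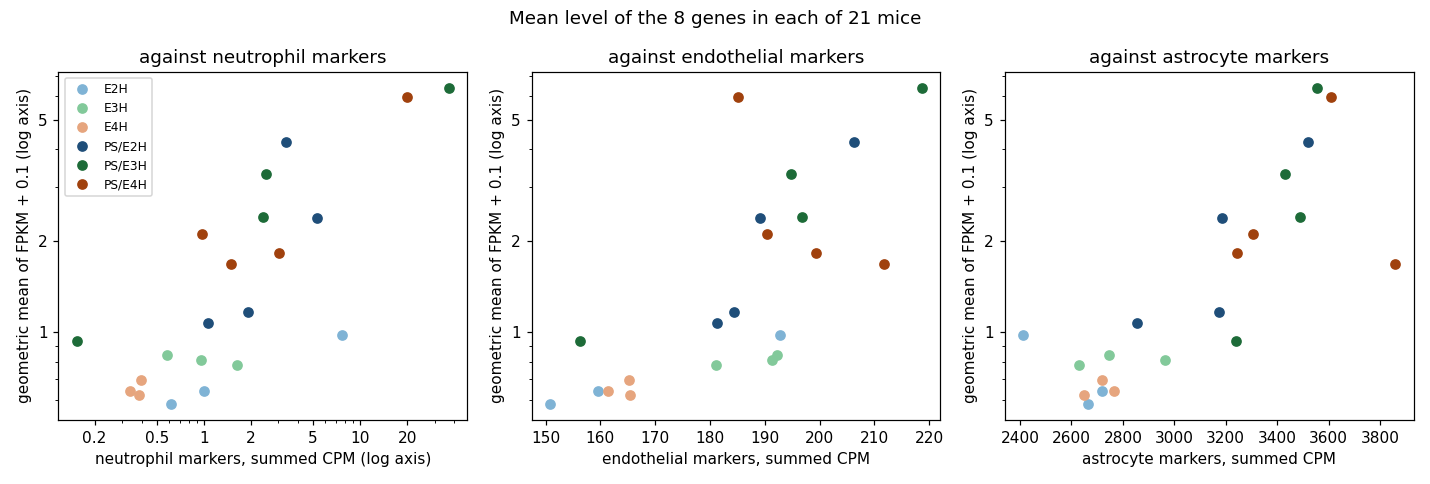
Mean level of the 8 genes (geometric mean of FPKM + 0.1, log axis) in each of 21 mice against the summed CPM of neutrophil markers (log axis), endothelial markers and astrocyte markers; colors give the group. The 2 mice with the highest mean level, at 6.39 and 5.97, are also those with most neutrophil marker RNA, at 36.9 and 20.1 CPM.

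Further pan-reactive genes (Gfap, Vim, Serpina3n and Cxcl10) were tested beside the 8. Gfap, the astrocyte intermediate filament, rose by a log2 fold change of 2.30 (SE 0.187), 2.66 (SE 0.197) and 3.08 (SE 0.125) in the APOE2, APOE3 and APOE4 lines, Vim by 1.28 (SE 0.221), 1.67 (SE 0.373) and 2.05 (SE 0.277), and Serpina3n, a secreted serine protease inhibitor, by 2.26 (SE 0.217), 2.80 (SE 0.373) and 1.41 (SE 0.203). These 3 passed in every line, and Cxcl10 passed as well in the APOE4 line. Hsbp1 was tested in the same list, is not counted as pan-reactive here and was not called in any line. In E4H mice Serpina3n was already at 155 ± 15.7 CPM (SD, n = 3) against 31.2 ± 2.61 in E2H and 26.4 ± 1.64 in E3H. The members' deviations followed those of Vim at r from 0.52 (Aspg) to 0.95 (S1pr3) and those of Gfap at r from 0.38 (Osmr) to 0.80 (S1pr3), over 21 mice.

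In the A1 list 2, 5 and 10 of 11 tested genes were called higher in the APOE2, APOE3 and APOE4 lines, and in the A2 list 1, 3 and 5 of 11, where the share of all tested genes called higher was 0.669%, 3.35% and 8.62%. Cd14, the lipopolysaccharide co-receptor, passed in all 3 lines with log2 fold changes of 1.61 (SE 0.228), 1.71 (SE 0.245) and 2.01 (SE 0.199). The median log2 fold change of the A1 genes was 0.94, 0.79 and 1.27 in these lines and that of the A2 genes 0.56, 0.30 and 0.52, where the medians over all tested genes were -0.02, -0.00 and -0.00. None of their genes was called lower.

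Genes that act with the members were followed in 5 further lists, to be read against the same shares of all tested genes called higher (0.669%, 3.35% and 8.62% in the APOE2, APOE3 and APOE4 lines). Of the OSM and IL-6 family, to which Osmr belongs, 1 of 15 (Stat3), 2 of 15 (Cntf and Il6st) and 6 of 16 genes were called higher in the APOE2, APOE3 and APOE4 lines, with a median log2 fold change of 0.15, 0.13 and 0.15. Of the matrix metalloproteinases and their inhibitors 0 of 16, 4 of 19 (Mmp3, Mmp12, Timp3 and Timp4) and 6 of 17 were called higher and, in the APOE4 line, 1 lower (Mmp17). Among ligands and partners of CD44, 1 of 17 (Cd74), 4 of 17 (Hyal1, Spp1, Ezr and Cd74) and 6 of 17 were called higher and 1 lower in the APOE4 line (Cemip). Cd74, the invariant chain of MHC class II, had log2 fold changes of 1.93 (SE 0.274), 2.02 (SE 0.182) and 3.03 (SE 0.231). Of the genes of iron and copper handling, 0, 5 and 5 of 17 were called higher, the 5 being Trf, Fth1, Ftl1, Hmox1 and Steap3 in both lines. In the sphingosine 1-phosphate pathway 0, 1 (Sgpl1) and 3 (Sgpl1, Asah1 and Cers2) of 13 were called. The single genes named here outside Cd14, Cd74, Gfap, Vim and Serpina3n were chosen after their values were seen.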

How the data were processed

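The authors prepared stranded poly(A) libraries, trimmed reads with cutadapt, aligned them to mouse GRCm38 (Ensembl release 101) with HISAT2 and quantified them with StringTie; versions are not given in the sources used here. They deposited whole-number counts without normalization for 55401 genes, and FPKM values, normalized by the authors to transcript length and sequencing depth, covering the 37538 genes with a count in some mouse. Columns were mapped by the samples' titles, and 0 were left unmapped. How reads matching several genes were divided was the authors' choice; of the 50-base windows of the 8 genes, 0% occur in exons of other genes, except 0.0165% for Osmr. Symbols and positions follow GENCODE M21, which names 55141 genes.

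Counts were tested with edgeR 4.0.16 in R 4.3.3 (TMM, filterByExpr with minimum count 10 and total 15, glmQLFit and glmQLFTest), each pair of groups on its own mice, over all tested genes with Benjamini-Hochberg adjustment at 0.05. One fit over 21 mice had the APOE line as a term, and 3 interactions used the mice of 2 lines each. The SE is the absolute log2 fold change divided by the square root of F. Scripts were tested on simulated counts. The members and lists were chosen with earlier results of these data known. All 8 members were described in every group; fold changes between APOE lines and in interactions are given for the member with the largest, and from other lists for genes past adjusted p 0.05 and 2-fold in all 3 lines. Mice were separate animals. Alternatives were DESeq2 1.42.0, its size factors, no count filter, 1 fit over all 6 groups, limma 3.58.1 on log2(FPKM + 1) and log2(FPKM + 0.1), a replicate block, and leaving out each mouse. Figures were drawn with matplotlib 3.10.9.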

Additional observations from a re-analysis of the deposited data

Results flagged for a closer look

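Of 27 sets of 4 PS19 mice examined (the 8 genes and their mean level, in 3 groups), 8 had a highest mouse set apart from the other 3, judged by its gap to the next mouse over the whole range of the group, on the linear CPM or FPKM scale. On the log2 scale 1 of the 8, Cd44 in PS/E2H, stayed past the same limit (0.93 of the range), and the other 7 were at 0.66 to 0.82. Chance flags about 1 in 20 groups where values are normally spread, a rate not established for the linear scale used here. The 27 are not independent, since the genes vary together and 2 mice account for all 8.

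In PS/E4H, mouse 1 stood apart for 4 genes and for the mean level. It had 57.5 CPM of Lcn2 against 5.35, 6.64 and 9.05, 21.9 CPM of Steap4 against 0.8286, 1.55 and 1.73, 8.29 CPM of Timp1 against 1.36, 2.41 and 2.54, and 12.4 CPM of Aspg against 7.87, 7.91 and 8.61. Its mean level was 5.97 FPKM against 1.67, 1.83 and 2.11.

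In PS/E2H, mouse 3 stood apart for 3 genes. It had 13.2 CPM of Steap4 against 0.752, 0.820 and 1.79, 27.4 CPM of S1pr3 against 11.3, 11.96 and 13.9, and 17.7 CPM of Cd44 against 6.995, 7.21 and 7.46. No mouse of PS/E3H was set apart in this way.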

How the results depend on the processing

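Over the 3 lines together all 8 genes kept their call with any 1 mouse left out (8 to 8 called) and 7 to 8 were called under the other alternatives, the 1 loss being Steap4 under limma on log2(FPKM + 1) (adjusted p = 0.0511). Within lines the number of genes called higher changed. In the APOE2 line it was 0, and became 2 in 1 fit of all 6 groups, 4 with DESeq2 (3 with the 2-fold limit) and 2 with a replicate block (Osmr and Aspg); with 1 mouse left out it was 0 to 2. In the APOE3 line it was 3, and became 1 without the count filter, 5 with DESeq2, 0 with limma on log2(FPKM + 1) and 1 on log2(FPKM + 0.1); with 1 mouse left out it was 0 to 8, under either limit. In the APOE4 line it was 7, and became 4 with limma on log2(FPKM + 1) (1 with the 2-fold limit). With 1 mouse left out it was 3 to 8. Smaller shifts of these counts are not listed. By gene, S1pr3 lost its APOE4 call under 4 of 7 alternatives and in 3 of 7 refits without 1 mouse. Timp1 and Cd44 each lost it under 2 of 7 and in 3 of 7, and Cp under 0 of 7 and in 1 of 7. Osmr and Aspg always kept it, and Lcn2 kept it wherever it had an adjusted p. A pseudocount of 1 exceeds the FPKM of Steap4, Timp1 and Osmr in every parental mouse. DESeq2 gave no adjusted p for Lcn2 and Steap4 in the APOE4 line, Steap4 in the APOE2 line and Lcn2 in the comparisons of E2H with E3H and E4H. The share of all genes called under each alternative is not given here, and the cause of the other changes was not tested.

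No gene was called between APOE lines or in an interaction under any alternative (0 to 0). Signs reversed in 4 uncalled values: Lcn2, E2H minus E3H, became -0.15 without E2H mouse 1 (up to 3.82 with another mouse left out); Steap4, PS/E2H minus PS/E3H, became 0.076 without PS/E3H mouse 4 (down to -3.05 with another left out); Lcn2, PS/E4H minus PS/E3H, became 0.039 with limma on log2(FPKM + 0.1) and 0.77 without PS/E3H mouse 4 (down to -2.24 with another left out). Of 701 alternative values for single genes, 643 kept direction and call, 36 lost the call and 18 gained it.

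The replicate numbers did not pair the mice, as deviations of same-numbered mice correlated at -0.09 to 0.05, so the replicate block, which gave 2, 3 and 5 calls in the APOE2, APOE3 and APOE4 lines, is given as an alternative only. With 3 or 4 mice a group, the spread between mice, and for Lcn2 in parental mice the low counts, set the precision.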
